A study of Mus musculus with 6 samples.

Results

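The megakaryocyte and platelet surface receptors studied here are 10 genes, Itga2b, Itgb3, Gp1bb, Gp5, Gp6, Gp9, Treml1, Clec1b, Cd9 and Lat, of the 18193 genes that the arrays name. They were chosen with earlier results of these data known, and every probe set whose platform annotation gave 1 of these symbols alone was read. That gave 12 of the 45037 probe sets that are no control, 2 each for Itgb3 and Gp1bb and 1 for each other gene. A further probe set, annotated to both Septin5 and Gp1bb, was left out. RNA came from common myeloid progenitors (CMP) of the bone marrow of C57BL6 mice, cells that give rise to the granulocyte-monocyte and the megakaryocyte-erythrocyte branches. H2-DCFDA, which becomes fluorescent once reactive oxygen species (ROS) oxidise it, was used to sort them into high-ROS CMP (3 arrays) and low-ROS CMP (3 arrays). Each fraction held between 15% and 20% of all CMP, and the series asks what ROS do in the step from CMP to megakaryocyte-erythrocyte progenitors. No age, genotype or treatment beyond strain and sort is given, nor is it stated that replicates are separate animals or sorts. The p-values therefore cover the spread among the arrays at hand, part or all of which may be technical.

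Megakaryocytes and the platelets they shed carry a small set of surface receptors that catch the vessel wall and turn that contact into adhesion. Itga2b and Itgb3 pair as the integrin that binds fibrinogen, known as CD41 and CD61. Gp1bb, Gp5 and Gp9 are subunits of the complex that holds platelets to von Willebrand factor. Gp6 binds collagen and Clec1b binds podoplanin, and both signal through the kinase Syk, with Lat as a membrane scaffold below Gp6. Treml1 is stored in platelet granules and shown on activation, and Cd9 is a tetraspanin that sits beside integrins. In mice Itga2b also appears on early blood progenitors, while Lat is also a gene of T cells and mast cells. Receptor genes of this lineage are known targets of GATA and ETS transcription factors.

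Promoter sequence from RefSeq (build GRCm38.p6) was found for 9 of the 10 genes. The 250 bases before the start are shown for Itga2b, Treml1 and Lat, whose groups did not overlap at signals above the pseudocount of 16 used below, and for Gp9 and Clec1b, which hold a GATA-type motif. Sequences run 5′ to 3′ on the gene's strand, and capitals mark GATAA (GATA type), GGAAG (ETS type) or TGTGGT (RUNX type) on either strand. The windows are chr11:102469884-102470133 (minus strand) for Itga2b, chr17:48359666-48359915 (plus) for Treml1 and chr7:126369569-126369818 (minus) for Lat. They are chr6:87777820-87778069 (plus) for Gp9 and chr6:129397047-129397296 (plus) for Clec1b.
Itga2b: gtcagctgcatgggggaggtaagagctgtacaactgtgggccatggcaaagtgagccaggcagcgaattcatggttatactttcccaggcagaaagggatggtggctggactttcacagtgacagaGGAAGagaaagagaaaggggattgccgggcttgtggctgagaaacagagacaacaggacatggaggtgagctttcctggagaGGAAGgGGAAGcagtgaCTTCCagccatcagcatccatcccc
Treml1: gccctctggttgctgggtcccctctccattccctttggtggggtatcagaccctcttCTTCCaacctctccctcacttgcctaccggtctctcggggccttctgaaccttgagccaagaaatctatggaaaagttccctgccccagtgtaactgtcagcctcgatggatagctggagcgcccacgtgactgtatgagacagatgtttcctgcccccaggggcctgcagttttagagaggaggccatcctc
Lat: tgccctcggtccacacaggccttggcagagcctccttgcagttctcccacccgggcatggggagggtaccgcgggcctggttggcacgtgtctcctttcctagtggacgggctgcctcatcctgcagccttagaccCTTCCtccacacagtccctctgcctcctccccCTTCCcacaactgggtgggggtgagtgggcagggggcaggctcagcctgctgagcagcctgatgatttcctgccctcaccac
Gp9: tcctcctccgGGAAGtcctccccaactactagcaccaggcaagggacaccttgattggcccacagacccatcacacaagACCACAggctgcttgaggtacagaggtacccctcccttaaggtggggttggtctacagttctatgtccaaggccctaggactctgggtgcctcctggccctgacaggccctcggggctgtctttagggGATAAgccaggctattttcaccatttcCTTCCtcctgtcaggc
Clec1b: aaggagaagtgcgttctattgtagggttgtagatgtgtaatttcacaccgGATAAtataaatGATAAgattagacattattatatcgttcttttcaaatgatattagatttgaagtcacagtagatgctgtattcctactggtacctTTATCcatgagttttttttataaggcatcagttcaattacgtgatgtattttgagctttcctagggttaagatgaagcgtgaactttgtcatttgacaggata

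The letters GGAAG occurred in 7 of these 9 windows, against 64.1% of the 32851 promoters of the same length in the table. Itga2b held 4 copies, 3 of them within 42 bases of the start, and Lat held 2 and Treml1 1. The letters GATAA occurred in 4 windows, those of Gp5, Gp6, Gp9 and Clec1b, against 22.6% of all promoters. Clec1b held 3 copies and Gp5 held 2, while the Gp9 copy lay 43 to 39 bases before the start. The windows of Itga2b, Treml1 and Lat did not hold these letters. The letters TGTGGT occurred in the Gp9 window alone, against 14.0% of all promoters. Such matches describe letters in a window, with no measure of binding.

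The 6 arrays were on a similar scale, with median signals of 40.9 to 41.4 in high-ROS CMP and 40.3 to 42.4 in low-ROS CMP, and signals near these medians are read as near background. Across all probe sets limma called 10 at an adjusted p under 0.05, 9 lower (0.0200% of those tested) and 1 higher (0.00222%) in high-ROS CMP. High-ROS replicate 3 and low-ROS replicate 1 stood apart, at opposite ends of the first principal component. High-ROS replicate 3 also had the highest ratio of 3' to 5' Gapdh signal, a measure of RNA integrity and labelling. That ratio was 3.57, 2.997 and 4.53 in high-ROS replicates 1 to 3 and 3.19, 2.84 and 2.54 in low-ROS replicates 1 to 3. The CMP genes Kit, a growth factor receptor, and Mpo, the granule peroxidase of early myeloid cells, had mean signals of 545 and 7103 in high-ROS CMP and 642 and 6822 in low-ROS CMP. These are the brightest probe sets, and Kit did not overlap between groups there (log2 fold change -0.22), while its dimmer probe set was at -0.82. The granule and cytoskeleton genes of platelets differed in level and direction. Pf4 lay at 534 to 752 in high-ROS and 1060 to 1135 in low-ROS CMP, and Cavin2 at 244 to 330 in high-ROS and 606 to 785 in low-ROS CMP. Ppbp lay at 19.1 to 44.3 in high-ROS and 13.8 to 33.9 in low-ROS CMP. Tubb1 lay at 8.87 to 40.2 in high-ROS and 12.6 to 17.2 in low-ROS CMP, so Ppbp and Tubb1 stayed near or under the array medians.

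In high-ROS CMP 9 of the 10 receptor genes had a lower and 1 a higher mean than in low-ROS CMP on their brightest probe set, and none passed the test (0 of 12 probe sets, limma, adjusted p between 0.685 and 0.970). Over all genes 46.0% had a lower mean on that probe set. At an unadjusted p under 0.05 there were 3 receptor genes lower, Itga2b, Lat and Treml1, and 0 higher, against 3.20% and 4.25% of all genes. The groups did not overlap for 4, these 3 and Gp6, all lower in high-ROS CMP, against 5.32% of all genes. The median log2 fold change of the 10 was -0.30, beside 0.019 for all genes. Because the 10 were chosen with earlier results of these data known, these counts and shares are descriptive and no independent test. The mean log2(signal + 16) of the 10 genes was 6.32, 6.41 and 6.34 on the high-ROS arrays and 6.78, 6.68 and 6.63 on the low-ROS arrays, while the median of all genes was 6.37, 6.37 and 6.42 on the high-ROS arrays and 6.38, 6.41 and 6.31 on the low-ROS arrays. The receptor mean was thus below every low-ROS array on each high-ROS array. In sorted bulk RNA, fewer cells of a type and less RNA per cell cannot be told apart.

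**Figure D1:**
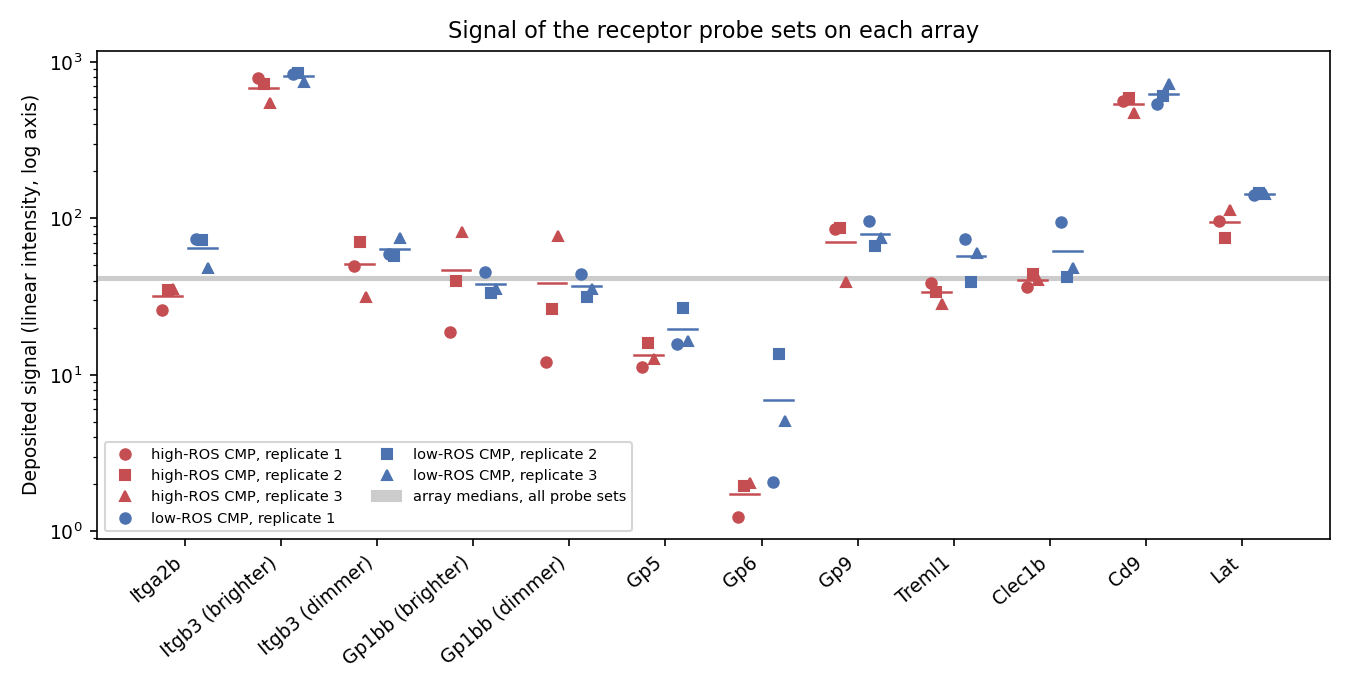
Deposited signal of each of the 12 receptor probe sets on the 6 arrays (log axis), high-ROS CMP in red on the left and low-ROS CMP in blue on the right of each gene, with a bar at each group's mean and a grey band over the array medians. Itga2b, Gp6, Treml1 and Lat have no overlap between groups, and most receptors lie close to the grey band.

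The fibrinogen receptor was read by 3 probe sets. Itga2b (Entrez Gene 16399) had signals of 25.9, 34.6 and 35.1 in high-ROS replicates 1 to 3, against 73.8, 72.3 and 47.9 in low-ROS replicates 1 to 3. All 3 high-ROS arrays lay below all 3 low-ROS arrays, and the high-ROS values lay under the array medians. The means were 31.9 ± 5.18 in high-ROS and 64.7 ± 14.6 in low-ROS CMP (SD, n = 3 each). On the scale of signal + 16, Itga2b was 1.67-fold lower in high-ROS CMP, the largest difference among the 12 probe sets (log2 fold change -0.74, SE 0.23, limma adjusted p = 0.685). Across all 45037 probe sets its p ranked 567, and 3.57% of probe sets were lower at an unadjusted p under 0.05. With each array left out in turn, the log2 fold change of Itga2b lay between -0.90 and -0.65. Its size depended on the pseudocount: it was -0.98 with a pseudocount of 1 and -0.42 with 64.

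Itgb3 (Entrez Gene 16416), the beta chain that pairs with Itga2b and also with the alpha V chain Itgav, was well above the array medians on its brighter probe set. Its signals there were 789, 723 and 544 in high-ROS CMP, against 837, 851 and 749 in low-ROS CMP. The groups overlapped, and high-ROS replicate 3 was the lowest array. The means were 685 ± 127 in high-ROS and 812 ± 54.9 in low-ROS CMP (SD, n = 3 each), with a log2 fold change of -0.25 (SE 0.15, 95% interval -0.59 to 0.082, limma adjusted p = 0.767). The dimmer probe set read 49.9, 71.0 and 31.6 in high-ROS and 59.3, 57.4 and 75.1 in low-ROS CMP. Its log2 fold change was -0.29 (SE 0.26), and high-ROS replicate 3 was again its lowest array. Without that replicate the 2 probe sets gave -0.10 and -0.071, and without high-ROS replicate 2 the dimmer one gave -0.51, so single arrays moved the Itgb3 difference in both directions. Itgav itself had mean signals of 613 in high-ROS and 589 in low-ROS CMP.

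The subunits of the von Willebrand factor receptor differed from each other in their pattern over the arrays. Gp1bb (Entrez Gene 14724), the small chain linked to the ligand-binding subunit, had signals of 18.8, 39.7 and 81.5 in high-ROS CMP on its brighter probe set, against 45.6, 33.3 and 35.6 in low-ROS CMP. The other probe set read 12.1, 26.4 and 77.2 in high-ROS and 44.1, 31.4 and 35.3 in low-ROS CMP. On both probe sets high-ROS replicate 1 was the lowest array and high-ROS replicate 3 the highest, so both read the same spread. The log2 fold changes were 0.089 (SE 0.34) and -0.13 (SE 0.37), of opposite sign and smaller than their errors. Without high-ROS replicate 3 they were -0.29 and -0.61, and without high-ROS replicate 1 they were 0.45 and 0.26.

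Gp9 (Entrez Gene 54368), the subunit that joins Gp1bb in the complex, went the other way on the same array. Its signals were 85.8, 86.5 and 39.2 in high-ROS CMP, against 96.6, 66.6 and 75.1 in low-ROS CMP. High-ROS replicate 3, the highest array for Gp1bb, was the lowest for Gp9, and the groups overlapped. The log2 fold change of Gp9 was -0.19 (SE 0.28, 95% interval -0.80 to 0.43), and leaving out 1 array gave values from -0.34 to 0.11, the value without high-ROS replicate 3 being 0.11. Gp5 (Entrez Gene 14729), the outer subunit that thrombin cuts, read 11.3, 16.1 and 12.6 in high-ROS and 15.6, 26.7 and 16.4 in low-ROS CMP. All 6 Gp5 values lay below the array medians, and the groups overlapped by 1 pair of arrays, with a log2 fold change of -0.27 (SE 0.19), and -0.13 without low-ROS replicate 2, the highest array. The ligand-binding subunit Gp1ba is not analysed here.

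**Figure D2:**
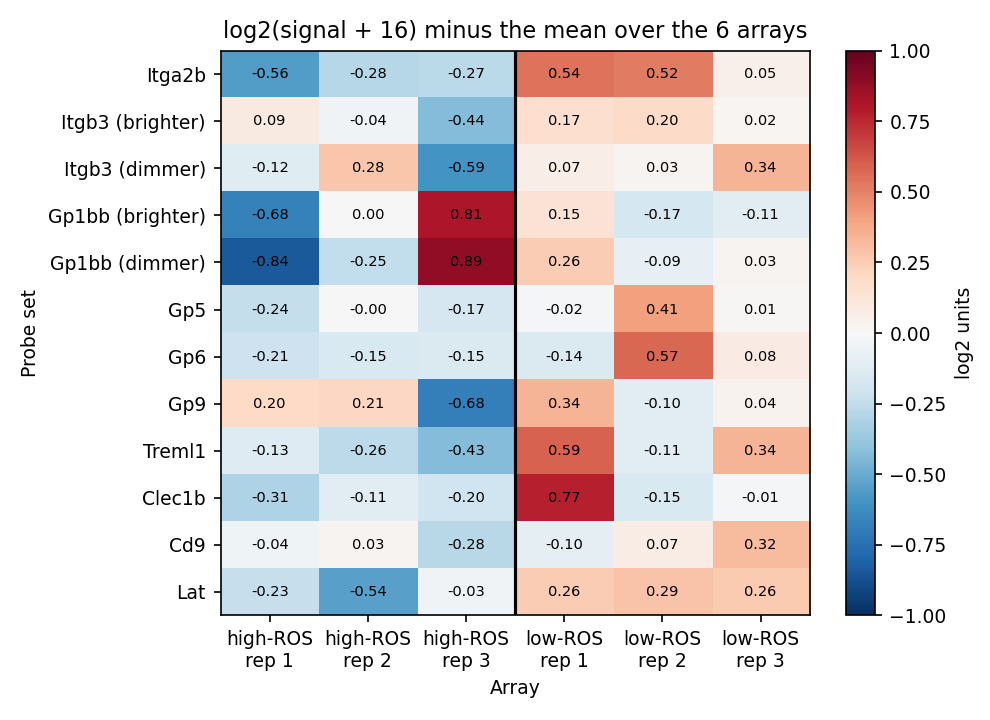
Each cell gives log2(signal + 16) of a receptor probe set on 1 array minus its mean over the 6 arrays, high-ROS arrays on the left of the black line and low-ROS arrays on the right. The Gp1bb probe sets reach 0.81 and 0.89 on high-ROS replicate 3, where Gp9 is at -0.68, and Lat lies between 0.26 and 0.29 on the low-ROS arrays.

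The receptors that signal through Syk were near or below background. Gp6 (Entrez Gene 243816), the collagen receptor, had signals of 1.24, 1.95 and 2.03 in high-ROS CMP, against 2.06, 13.6 and 5.05 in low-ROS CMP. The groups did not overlap, but the closest arrays were nearly equal, and all 6 values were under the pseudocount of 16. Its log2 fold change was -0.34 (SE 0.16) and is set mostly by that pseudocount: it was -1.25 with a pseudocount of 1 and -0.11 with 64. It was -0.14 without low-ROS replicate 2, the highest array, and -0.49 without low-ROS replicate 1. Clec1b (Entrez Gene 56760), the podoplanin receptor, read 36.4, 44.3 and 40.6 in high-ROS and 94.95, 42.4 and 48.3 in low-ROS CMP. The groups overlapped, and low-ROS replicate 1 alone stood high. The log2 fold change was -0.41 (SE 0.27), and -0.12 without that replicate.

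Lat (Entrez Gene 16797), the scaffold below Gp6, had the smallest spread among low-ROS arrays of the 12 probe sets on the log2 scale. Its signals were 96.2, 74.7 and 112.8 in high-ROS CMP, against 141.5, 144.7 and 142.3 in low-ROS CMP. All 3 high-ROS arrays lay below all 3 low-ROS arrays, with means of 94.6 ± 19.1 in high-ROS and 142.8 ± 1.66 in low-ROS CMP (SD, n = 3 each). Lat was 1.45-fold lower in high-ROS CMP on the scale of signal + 16 (log2 fold change -0.54, SE 0.20, limma adjusted p = 0.702). Leaving out any 1 array gave log2 fold changes between -0.65 and -0.40.

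Lat is shared with T cells and mast cells, so their genes were read beside it. In high-ROS CMP 5 of 11 measured T cell genes had a lower and 6 a higher mean (median log2 fold change 0.096, 0 called). Their summed signal was 1806 to 2089 in high-ROS and 1968 to 2199 in low-ROS CMP. Among the list's genes with the smallest p, the T cell adaptor Trat1 read 6.07 in high-ROS and 19.4 in low-ROS CMP, Cd247, the zeta chain, 547 and 714, and Cd5 30.1 and 18.6. Trat1 and Cd5 lay under the array medians on all 6 arrays. Of 11 measured mast cell, basophil and eosinophil genes 7 had a lower and 4 a higher mean (median log2 fold change -0.051, 0 called), and the summed signal was 12282 to 14733 in high-ROS and 14144 to 15734 in low-ROS CMP. Those with the smallest p were Mcpt8, Hdc and Prg2, with log2 fold changes of -0.17, -0.11 and -0.11. The 4 higher genes were Cpa3 at 0.11, Tpsb2 at 0.10, Fcer1a at 0.057 and Gzmb at 0.047. The largest signals in the sum were those of Prg2 and Epx, with means of 7472 and 3421 in high-ROS and 8046 and 3701 in low-ROS CMP. The part of these cells in the Lat result was not tested.

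Treml1 (Entrez Gene 71326), the granule-stored receptor, had signals of 38.8, 34.1 and 28.3 in high-ROS CMP, against 74.3, 39.3 and 59.9 in low-ROS CMP. The groups did not overlap, though high-ROS replicate 1 and low-ROS replicate 2 were less than 1 signal unit apart. The means were 33.7 ± 5.24 in high-ROS and 57.9 ± 17.6 in low-ROS CMP (SD, n = 3 each). Treml1 was 1.46-fold lower on the scale of signal + 16 (log2 fold change -0.55, SE 0.24, limma adjusted p = 0.717). Its high-ROS values and low-ROS replicate 2 lay under the array medians. The log2 fold change of Treml1 was -0.73 with a pseudocount of 1 and -0.31 with 64. Cd9 (Entrez Gene 12527), the tetraspanin, was well above the array medians, at 562, 590.3 and 473 in high-ROS and 538, 609 and 724 in low-ROS CMP. Its groups overlapped, with a log2 fold change of -0.19 (SE 0.15, 95% interval -0.53 to 0.14), with -0.10 when high-ROS replicate 3 was left out and -0.083 when low-ROS replicate 3 was.

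The high-ROS array on which the Gapdh ratio peaked, replicate 3, was the lowest array for Itgb3, Gp9, Treml1 and Cd9 and the highest for Gp1bb. A fit that includes this ratio, added with the values in view, gave log2 fold changes on the brightest probe sets of -0.096 for Itgb3, 0.17 for Gp9, -0.52 for Treml1, 0.057 for Cd9 and -0.39 for Gp1bb. Those of Itga2b and Lat were -0.88 and -0.76. Low-ROS replicate 1, at the other end of the first principal component, was the highest array for Itga2b, Gp9, Treml1 and Clec1b. Without that array their log2 fold changes were -0.66, -0.060, -0.39 and -0.12.

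**Figure D3:**
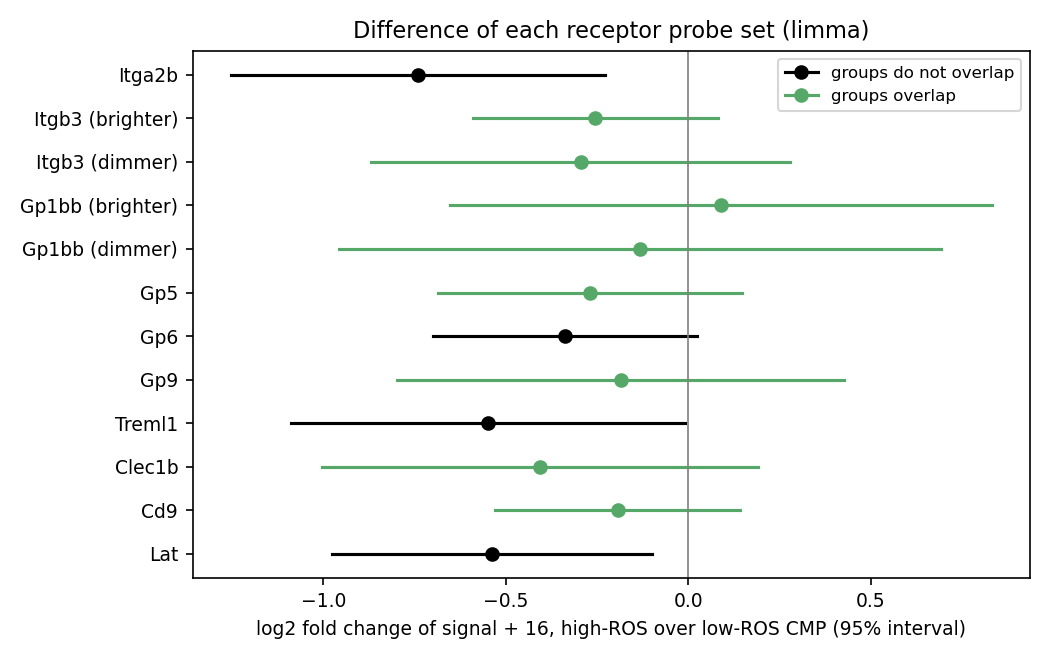
Points give the log2 fold change of signal + 16 of each receptor probe set, high-ROS over low-ROS CMP, and lines its 95% limma interval, black where the groups do not overlap and green where they do. The intervals of Itga2b, Lat and Treml1 lie below 0, and 11 of the 12 points do.

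**Figure D4:**
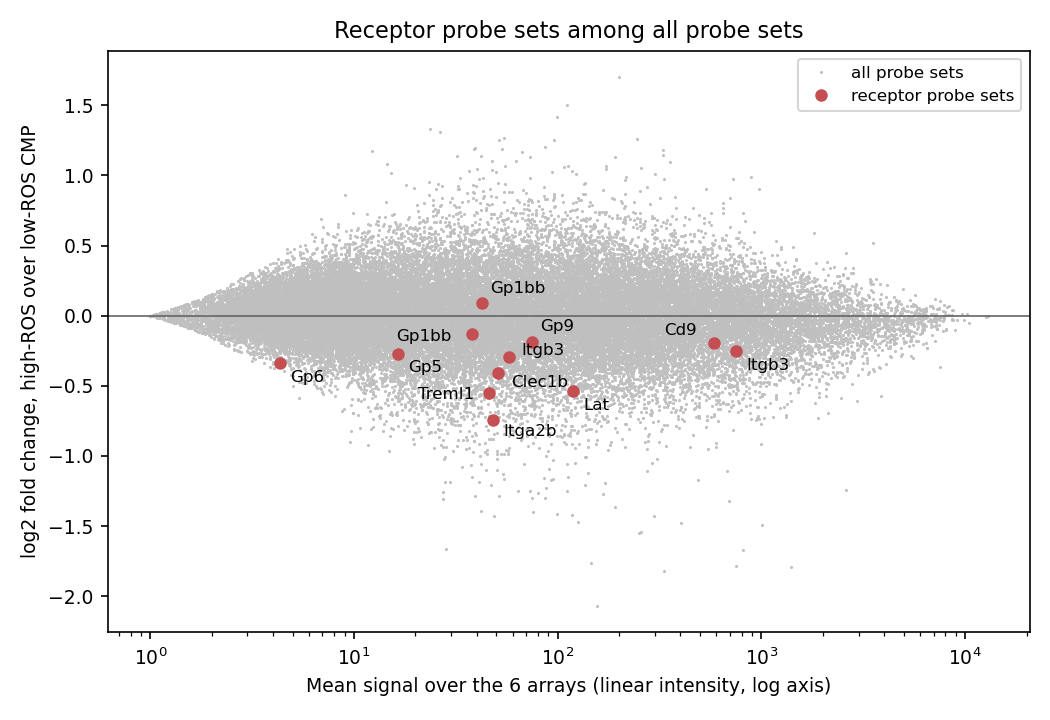
Every probe set is a grey point at its mean signal over the 6 arrays (log axis) and its log2 fold change, high-ROS over low-ROS CMP, with the 12 receptor probe sets in red. Itga2b, Treml1 and Lat lie toward the lower edge of the grey cloud, and probe sets at several brightness levels lie below them.

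The profile of Itga2b over the 6 arrays, centred on its own mean on the log2 scale, was closest to those of Lrrc10b, Cabyr and Aldh1a3 among the brightest probe sets of genes outside the 10. Their root mean square differences from it were 0.12, 0.12 and 0.13 log2 units, over 6 arrays that share the 2 groups. Cabyr, a calcium-binding protein known from sperm, had mean signals of 75.2 in high-ROS and 142.5 in low-ROS CMP, and Aldh1a3, a retinaldehyde dehydrogenase, had 7.83 and 21.7. Lrrc10b had 51.03 in high-ROS and 82.8 in low-ROS CMP. For Itgb3 the closest were the histone methyltransferase gene Nsd3, the Mediator subunit gene Med24 and Kmt2e, each with a difference of 0.035. Nsd3 had mean signals of 558 in high-ROS and 654 in low-ROS CMP, and Kmt2e 1568 and 1823. All 3 were lowest on high-ROS replicate 3, as Itgb3 was.

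The wider receptor pathway was read through 5 lists, of which 86 genes were measured. On their brightest probe set 56 had a lower and 30 a higher mean in high-ROS CMP, the median log2 fold change was -0.11, and 2 were called lower (background 0.0275% of all genes), F2r and Gata2. The lists were drawn up with earlier results of these data known, which already showed both genes. Of 20 other adhesion and tetraspanin receptors 14 had a lower and 6 a higher mean, with a median of -0.095 and 0 called. Itgb1, the beta chain of collagen- and laminin-binding integrins, had 326, 464 and 179 in high-ROS and 534, 401 and 524 in low-ROS CMP (log2 fold change -0.65, SE 0.28), while its other probe sets ranged from -0.61 to 0.32. Its laminin-binding partner Itga6 was at -0.37 (SE 0.18), and the junction protein Esam, below the array medians in all but low-ROS replicate 1, had -0.66 (SE 0.31).

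Agonist and growth factor receptors held the largest single difference of the pathway. Of 11 measured, 9 had a lower and 2 a higher mean in high-ROS CMP (median log2 fold change -0.22), and 1 was called. The thrombin receptor F2r had signals of 265, 271 and 469.6 in high-ROS CMP, against 1237, 1046 and 1187 in low-ROS CMP (log2 fold change -1.78, SE 0.20, limma adjusted p = 0.0167). The call of F2r was lost when high-ROS replicate 1 or 2 or any low-ROS replicate was dropped, with adjusted p-values up to 0.205, and its log2 fold change then lay between -1.85 and -1.65. The thrombin receptors named F2rl2 and F2rl3 differed by -0.14 and 0.0043 on the log2 scale. F2rl3 lay under the array medians on every array, with mean signals of 24.1 in high-ROS and 24.2 in low-ROS CMP. The prostaglandin E receptor Ptger3 read 84.9, 98.5 and 73.1 in high-ROS and 140.1, 136 and 161 in low-ROS CMP, with no overlap (log2 fold change -0.68, SE 0.19, limma adjusted p = 0.633). Tgfbr3, which presents ligands of the transforming growth factor beta family, had -1.11 (SE 0.15, limma adjusted p = 0.0740). The adenosine diphosphate receptors P2ry1 and P2ry12 were under the array medians on average in both groups, at 24.8 and 9.15 in high-ROS and 33.9 and 9.46 in low-ROS CMP.

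The signalling genes below the receptors were spread about 0. Of 19 genes of signalling below Gp6 and Clec1b, 10 had a lower and 9 a higher mean in high-ROS CMP (median log2 fold change -0.0041, 0 called). Fcer1g, the chain that carries the Gp6 signal, had mean signals of 2729 in high-ROS and 2742 in low-ROS CMP. Syk had -0.26 (SE 0.13) on its brightest probe set and -0.21, -0.071 and -0.11 on its other probe sets. The kinase Btk had -0.49 (SE 0.23), the phosphoinositide 3-kinase subunit Pik3r1 -0.33 (SE 0.16) and the phosphatase Inpp5d, a brake on the pathway, 0.31 (SE 0.13). On dimmer probe sets Pik3r1 reached 0.18 and Inpp5d was at -0.020, so their directions also depended on the probe set.

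Of 18 genes that switch on the Itga2b-Itgb3 integrin from inside the cell, 10 had a lower and 8 a higher mean (median log2 fold change -0.054, 0 called). Tln1, talin, which binds the Itgb3 tail, had -0.27 (SE 0.16) on the brightest probe set and -0.24 and 0.20 on the others, the small GTPase Rap1b -0.14 (SE 0.076) and the integrin-linked kinase Ilk -0.28 (SE 0.17). Rasgrp2, the exchange factor that loads Rap1, had -0.060 (SE 0.19) on the brightest probe set and 0.36, 0.41 and 0.16 on the others, so the directions of Tln1 and Rasgrp2 depended on the probe set.

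For regulators of these receptor genes the median log2 fold change was -0.32. Of 18 measured, 13 had a lower and 5 a higher mean in high-ROS CMP, and 1 was called. Gata2, a GATA factor of stem cells and early megakaryocytes, read 210.3, 240.3 and 168 in high-ROS and 593, 604 and 594 in low-ROS CMP. Its log2 fold change was -1.48 (SE 0.16, limma adjusted p = 0.0147), and -0.72 (SE 0.16, adjusted p = 0.421) on its other probe set. Dropping high-ROS replicate 1 or any low-ROS replicate ended the call of Gata2, with adjusted p-values up to 0.184 and log2 fold changes of -1.50 to -1.47. The ETS factor Fli1 read 849.7, 939 and 621 in high-ROS and 1142, 1115 and 1061 in low-ROS CMP, without overlap (log2 fold change -0.47, SE 0.15, limma adjusted p = 0.689). Its other probe set, with overlapping groups, was at -0.27 (SE 0.21). Meis1, a partner of Hox factors, had -0.64 (SE 0.25). Gata1, the GATA factor of megakaryocyte and red cell maturation, had -0.32 (SE 0.21), and Runx1 had -0.36 (SE 0.21), both with overlapping groups. The other 5 Runx1 probe sets lay between -0.34 and 0.054.

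**Figure D5:**
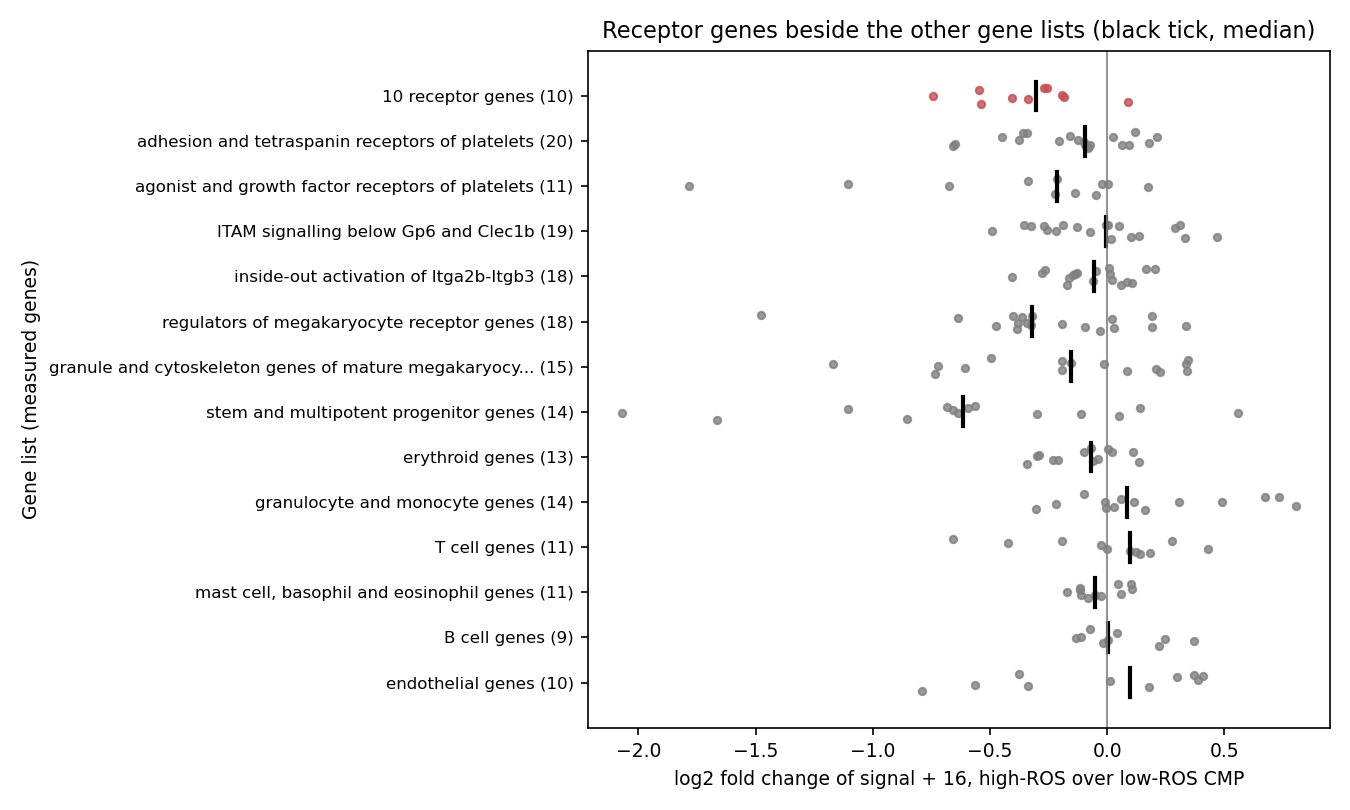
Each point is the log2 fold change of 1 gene, high-ROS over low-ROS CMP, on its brightest probe set, with the receptor genes in red, the other lists in grey and a black tick at each median. The receptor median is -0.30, that of the regulators -0.32 and that of the agonist and growth factor receptors -0.22. The stem and multipotent progenitor genes have the lowest median, at -0.62.

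Markers of other cells that the gate could hold were read beside the receptors. These marker lists, too, were drawn up with earlier results of these data known. Of 14 stem and multipotent progenitor genes 11 had a lower and 3 a higher mean in high-ROS CMP (median log2 fold change -0.62). Among them 1 was called lower, beside 0.0275% of all genes. Their summed signal was 1734 to 1895 in high-ROS and 2657 to 2954 in low-ROS CMP. On the log2 scale the 3 higher genes were Flt3 at 0.56 (SE 0.26), Hoxa9 at 0.14 and Procr at 0.052. Flt3 had mean signals of 250 in high-ROS and 156 in low-ROS CMP, with overlapping groups. The receptor Tek had -2.07 (SE 0.33, limma adjusted p = 0.116) and the surface protein Slamf1 -1.66 (SE 0.27, limma adjusted p = 0.127). Slamf1 read 1.0, 2.5 and 12.1 in high-ROS CMP, all under the pseudocount of 16, and 76.1, 43.9 and 35.05 in low-ROS CMP. The Tek ligand Angpt1, the one called, had -1.11 (SE 0.12, limma adjusted p = 0.0147). Angpt1 stayed called when high-ROS replicate 3 was dropped and not when any of the other 5 arrays was, with adjusted p-values up to 0.184 and log2 fold changes of -1.12 to -1.09. Of 15 granule and cytoskeleton genes of mature megakaryocytes and platelets 9 had a lower and 6 a higher mean (median -0.15, 0 called). The groups did not overlap for 6 of the lower genes and 1 of the higher ones. Summed signals were 5644 to 6346 in high-ROS and 5984 to 6314 in low-ROS CMP. The granule chemokine Pf4 had -0.73 (SE 0.14) and the caveolar protein Cavin2 -1.17 (SE 0.16). The clotting subunit F13a1, which monocytes also make, had 0.34 (SE 0.10) and was the higher gene without overlap. F13a1 was also the brightest gene in the sum, at 2811 to 3560 in high-ROS and 2361 to 2602 in low-ROS CMP. The summed signals were thus weighted toward a gene that went opposite to the list's median. Vwf, von Willebrand factor itself, had mean signals of 68.5 in high-ROS and 76.4 in low-ROS CMP.

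The remaining marker lists had medians closer to 0. Mean signals of 9 of 13 erythroid genes were lower in high-ROS CMP (median log2 fold change -0.068, 0 called), with Slc4a1 at -0.30, Car2 at -0.21 and Epor at -0.34, and summed signals of 17731 to 19684 in high-ROS and 20907 to 20962 in low-ROS CMP. Of 14 granulocyte and monocyte genes 9 had a higher and 5 a lower mean (median 0.086, 0 called). Those with the smallest p were Ly86 at 0.81, Ms4a6c at 0.73 and Irf8 at 0.67. The lower genes were Csf3r at -0.31, Itgam at -0.22, Lyz2 at -0.098, S100a8 at -0.011 and S100a9 at -0.0054. Summed signals were 51845 to 54828 in high-ROS and 49955 to 52149 in low-ROS CMP, with S100a8 and S100a9 the brightest genes. The 9 B cell genes had a median of 0.0058 and the 10 endothelial genes one of 0.096, with 0 called in each. Among the B cell genes Cd79b had -0.11, Ms4a1 0.22 and Blnk 0.37. Among the endothelial genes, whose median mean signal was 20.8, Kdr had -0.79, Egfl7 0.41 and Robo4 -0.57. The part of any of these cells in the receptor values was not tested.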

How the data were processed

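Per the labels' protocols, NuGEN Ovation reagents amplified the RNA and added the biotin label. The deposited file holds, for every array, a linear intensity of each probe set, and the sources used here do not say how the authors summarised and scaled it. They carry no detection call. Names came from the platform annotation: of 45101, 64 were controls and were left out, 34945 had 1 symbol, 932 several and 9160 none there. The 6 columns were matched to samples by name.

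A pseudocount of 16 was added before log2, with no further normalization or filter. The comparison, high-ROS over low-ROS CMP, ran on all 45037 probe sets with limma 3.58.1 in R 4.3.3 (lmFit, eBayes with a mean-variance trend, 2-sided, Benjamini-Hochberg over all probe sets, threshold 0.05), with 4 residual degrees of freedom and 10.7 after sharing across probe sets. The steps were tested on simulated data. For lists, each gene was read by its brightest probe set. Where 3 arrays meet 3, an exact permutation test cannot give a p below 0.1, so none was run, and the number of arrays limits the precision. Named were the 10 receptors, the 3 genes of each list with the smallest p, a fixed set of regulators and signalling genes, and the 3 nearest profiles of Itga2b and of Itgb3. Other genes named (Kit, Mpo, Itgav, F2rl2, F2rl3, P2ry1 and P2ry12) were picked with their values known. So were members of the stem, mast cell and granulocyte lists named beyond the 3 with the smallest p. The receptors and the lists were chosen with earlier results of these data known. Same-numbered replicates of the groups deviated together with correlations of 0.098, 0.086 and 0.0092 over probe sets. The highest correlations of the high-ROS replicates with low-ROS arrays of other numbers were -0.060, 0.044 and 0.012. Same-numbered arrays were not treated as pairs, and a fit with the number as a block is given below. Promoters came from the RefSeq table. Python 3.11.15 with matplotlib 3.10.9 drew the figures.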

Additional observations from a re-analysis of the deposited data

How the results depend on the processing

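Over 17 other settings, 0 receptor probe sets were called, with adjusted limma p-values from 0.388 upward, and 14 of the settings again gave 9 of 10 receptor genes with a lower mean in high-ROS CMP. The exceptions were averaging the probe sets of a gene (10 of 10), only probe sets above the median signal (7 of 8, without Gp5 and Gp6) and the Gapdh ratio as a covariate (8 of 10). The receptor median lay between -0.51, with a pseudocount of 1, and -0.21, with a pseudocount of 64. Itga2b, Itgb3 on its brighter probe set, Gp5, Gp6, Treml1, Clec1b and Lat kept their sign in all settings run on them. The sign turned in 12 of 197 values. For the brighter Gp1bb probe set it was -0.022 with averaged probe sets, -0.16 with array weights, -0.20 without the arrays that end the first principal component (low-ROS replicate 1 and high-ROS replicate 3) and -0.39 with the Gapdh covariate, and leaving out 1 array at a time gave -0.29 to 0.45. For the dimmer one leaving out 1 array gave -0.61 to 0.26. For Gp9 it was 0.022 with array weights, 0.24 without both end arrays and 0.17 with the Gapdh covariate, and -0.34 to 0.11 leaving out 1 array. With that covariate Cd9 was at 0.057 and the dimmer Itgb3 probe set at 0.17. The last 2 settings, without both end arrays and with the covariate, were chosen after the data were seen. The causes were not tested.

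Against 10 probe sets called over the whole table, limma called 0 with no mean-variance trend (1478 lower and 1592 higher at an unadjusted p under 0.05), 33 with array weights, 6 without both end arrays, 6 with the Gapdh covariate and 3 to 8 leaving out 1 array. Over the 17 settings F2r was called in 11, Gata2 in 9 and Angpt1 in 8, each with a negative log2 fold change in all of them. With the replicate number as a block limma called 5 probe sets, 0 of them of receptors. Whether same-numbered arrays are pairs is not stated.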
